A study of Mus musculus with 12 samples.

Results

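Stellate cell and extracellular matrix genes were described across 12 mouse arrays. The list named 47 genes, and 45 of them had a transcript cluster that carried their symbol alone, out of 19938 genes measured in this way. No such cluster was found for Fbn1 (fibrillin) or Loxl2 (a crosslinking enzyme), which were not analysed here. The mice were KK-Ay, obese mice with type 2 diabetes (T2D) that bear the A-y mutation of the agouti gene on the KK background, and KK, the control strain. Each title group held 2 arrays. The groups were 42Y and 42WKK, the KK-Ay and KK mice at 42 weeks, 6Y and 16Y, which the series lists with 42Y as T2D, and 6K and 1, which it lists with 42WKK as control. The methods name 42 weeks as the age of the mice used, and no treatment is named. No source used here gives an age for the title numbers 6 and 16 or a strain for group 1. The strain label KK is given for 42WKK alone, so the K of 6K is only the letter in its title.

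The records disagree on some labels. The sample records call 6K T2D and 42Y control, and they name blood leukocytes where the methods name liver. The agouti gene (a) had log2 signals of 6.78 to 7.06 in the 6 Y arrays and 5.20 to 5.51 in the 6 other arrays. Raly, which the A-y deletion affects, had 6.59 to 6.81 in the Y arrays and 7.21 to 7.73 in the others, and Eif2s2, beside it, 7.20 to 7.67 and 8.15 to 8.88. The 6K arrays thus lay with the controls and the 42Y arrays with the other Y arrays. Hepatocyte markers had array medians of 13.05 to 13.25 and T cell markers 4.18 to 4.49, so the arrays were read as liver, and they were grouped by title. The deposited log2 signals had array medians from 4.74 to 4.88, and 24 of the 45 members had a mean of at least 6, while 9 lay below all of these medians. These 9 were Col5a2, Lama2, Lum, Thbs2, Lox, Mmp13, Timp1, Tgfb2 and Tgfb3. Separate mice for the 2 arrays of a group are not stated, and the p-values then reflect a spread that may be technical. No scan date or batch is named either, so the title number and a batch that goes with it cannot be told apart.

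Hepatic stellate cells lie between the hepatocytes and the sinusoidal endothelium and store retinyl esters made by the enzyme Lrat. When activated in injured or fatty liver, they become myofibroblasts that carry smooth muscle actin and lay down fibrillar collagen, a process driven by TGF-beta and PDGF. Basement membrane chains such as collagen IV, laminin and nidogen are made by stellate cells and endothelial cells, and much of liver fibronectin comes from hepatocytes. In a bulk sample, fewer cells of a type and less RNA per cell cannot be told apart.

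The matrix genes differed most between the arrays of title number 6 and the rest. All 4 arrays of 6K and 6Y were above all 8 other arrays in 14 of the 45 members (31.1%), against 3.55% of all genes measured. No member had all 4 below. The 14 were the fibrillar chains Col1a1, Col1a2, Col3a1 and Col5a2, the basement membrane genes Col4a1, Col15a1, Lama2, Lamc1 and Nid1, the fibril-associated Col14a1, and Eln, Sparc, Thbs2 and Loxl1. The gap between the lowest array of title number 6 and the highest other array was 1.09 on the log2 scale for Sparc and 0.71 for Col3a1. It was only 0.01 for Thbs2 and 0.06 for Col5a2. The means of both, and that of Lama2, lay below all array medians. The highest group mean was in 6K or 6Y for 37 of the 45 members, in 6Y for 28 of these. The split by title number was noticed in the values, and the comparison of 42Y and 42WKK with 6Y and 6K was added after they were seen.

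**Figure D1:**
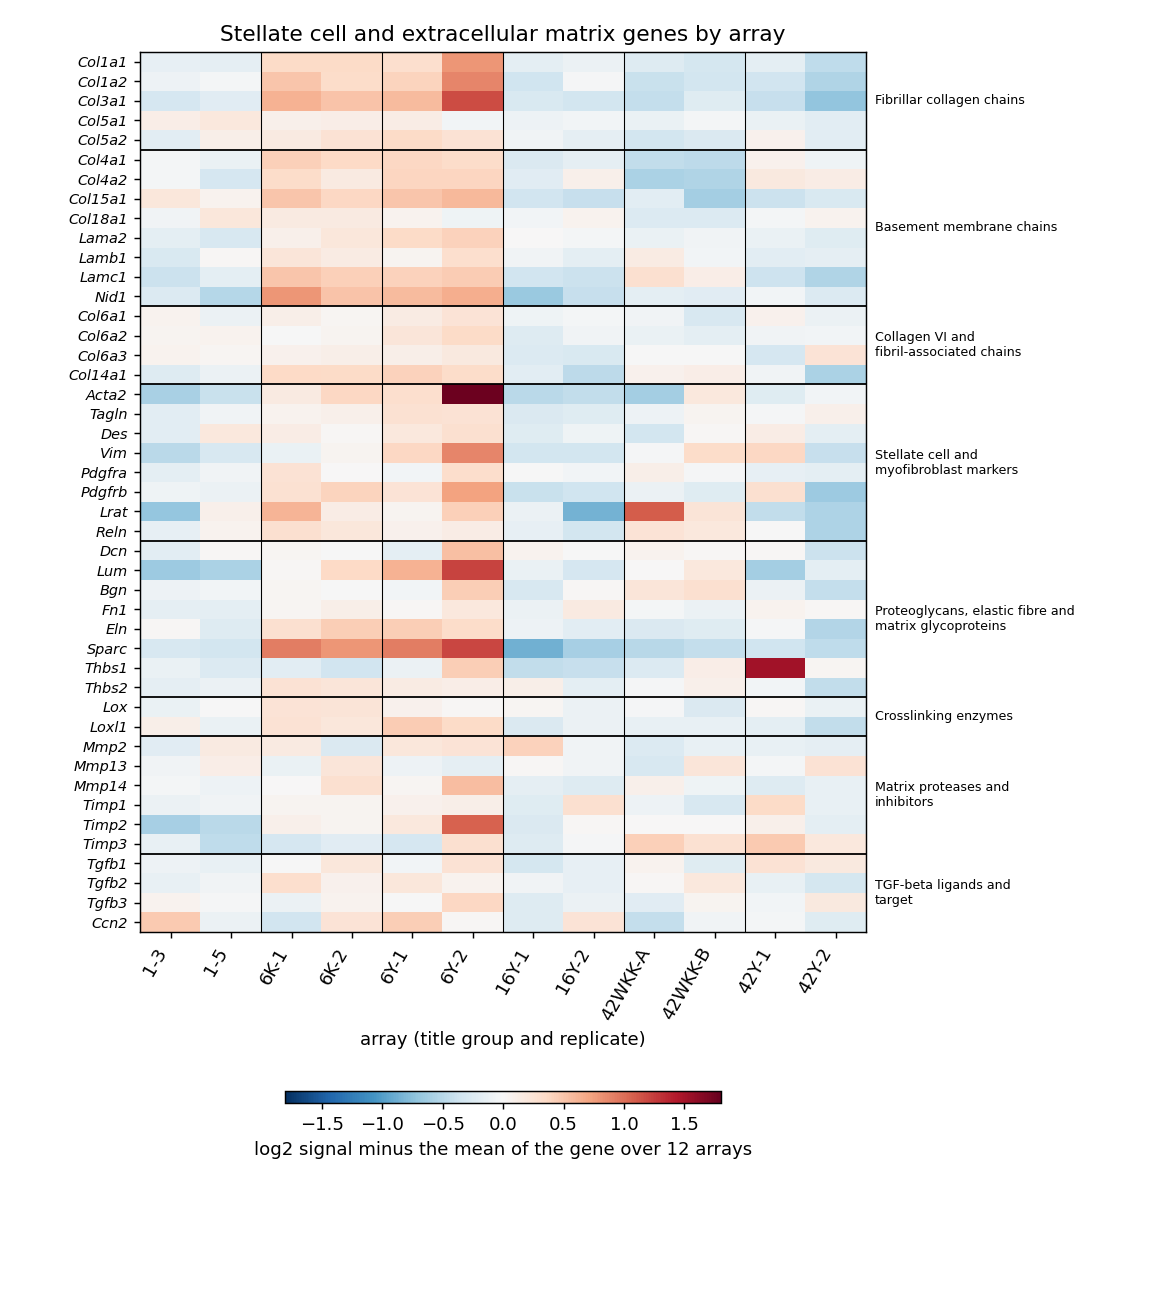
Log2 signal of each of the 45 genes (rows, by role) in each of the 12 arrays (columns, by title group and replicate), minus the mean of the gene over the 12 arrays. The 4 columns of 6K and 6Y are the reddest for most fibrillar and basement membrane genes, and 6Y-2 is the highest array in 22 genes.

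Over Y and K together, 12 of the 45 members were lower at title number 42 than at 6 and none was higher, at a Benjamini-Hochberg adjusted p under 0.05 from limma over 35556 clusters. This was 26.7% of the members, against 3.61% of all genes called in either direction and 2.07% called lower. The means of 42 of the 45 members were lower, and the median log2 difference was -0.25, against -0.02 over all genes. The 12 were 3 of 5 fibrillar chains, 6 of 8 basement membrane chains, 2 of 8 proteoglycans and glycoproteins (Eln and Sparc) and 1 of 2 crosslinking enzymes (Loxl1). None of the 8 stellate cell markers, the 4 chains of the collagen VI group, the 6 proteases and inhibitors or the 4 genes of the TGF-beta group passed. Without 6K-1 or 42WKK-B the count was 6, and without 6K-2 or 42WKK-A it was 7. Col1a2, Col3a1, Col4a1, Col15a1, Nid1 and Sparc passed without each array in turn.

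Sparc (transcript cluster 10386058), a secreted glycoprotein that binds collagen and steers its assembly, showed the largest difference of the members. Its log2 signals were 8.57 and 8.53 in group 1, 9.78 and 9.66 in 6K, 9.78 and 10.06 in 6Y, 8.0 and 8.27 in 16Y, 8.36 and 8.43 in 42WKK, and 8.50 and 8.41 in 42Y. The 4 arrays of title number 6 stood apart from all others, and Y and K overlapped within it. The signal was 2.63-fold lower at title number 42 than at 6 (log2 difference -1.39, standard error 0.09, limma adjusted p = 0.00042). Sparc was also lower in 42Y than in 6Y, by 1.46 (adjusted p = 0.0031), in 16Y than in 6Y, with -1.79 (adjusted p = 0.003), and in 42WKK than in 6K, with -1.32 (adjusted p = 0.0049). These comparisons share arrays and are not independent of each other.

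Among the fibrillar collagens, Col1a1 and Col1a2 encode the chains of type I collagen, and Col3a1 that of type III, the main fibrils of liver scar. Col3a1 (cluster 10346015) had log2 signals of 5.78 and 5.88 in group 1, 6.71 and 6.59 in 6K, 6.65 and 7.25 in 6Y, 5.80 and 5.75 in 16Y, 5.65 and 5.86 in 42WKK, and 5.66 and 5.37 in 42Y. The lowest array of title number 6 was above every other array, and 6Y-2 was the highest of all. Col3a1 was 2.24-fold lower at title number 42 than at 6 (log2 difference -1.17, standard error 0.14, limma adjusted p = 0.0054). Col1a2 (cluster 10536220) ranged from 6.61 to 7.16 in the 4 arrays of title number 6 and reached 6.27 at most elsewhere, with a log2 difference of -0.93 (95% interval -1.22 to -0.65, limma adjusted p = 0.0089). Col1a1 (cluster 10380419) was at 6.42 or above in these 4 arrays and at 6.01 or below in the others, with -0.74 (standard error 0.11, limma adjusted p = 0.015). Both chains of type I collagen, like Col3a1, had their highest means in 6Y and 6K and their lowest in 42Y. The type V chains, which start fibrils, did not pass. The value was -0.43 for Col5a2 (limma adjusted p = 0.052), and Col5a1 stayed between 5.69 and 6.06 in the 12 arrays.

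The sequence before the start of Col1a2 is shown as that of a fibrillar chain in this group. It spans chr6:4505368-4505617 on the plus strand (RefSeq, GRCm38.p6), and it ends at the base before the annotated start. Capitals mark CCAAT boxes (CCAAT) and GC boxes (GGGCGG) on either strand.
Col1a2: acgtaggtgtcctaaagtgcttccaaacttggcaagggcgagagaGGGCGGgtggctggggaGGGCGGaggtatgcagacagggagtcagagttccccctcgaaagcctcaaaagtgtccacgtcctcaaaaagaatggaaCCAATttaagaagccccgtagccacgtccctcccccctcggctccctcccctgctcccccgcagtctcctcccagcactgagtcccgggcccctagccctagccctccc

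**Figure D2:**
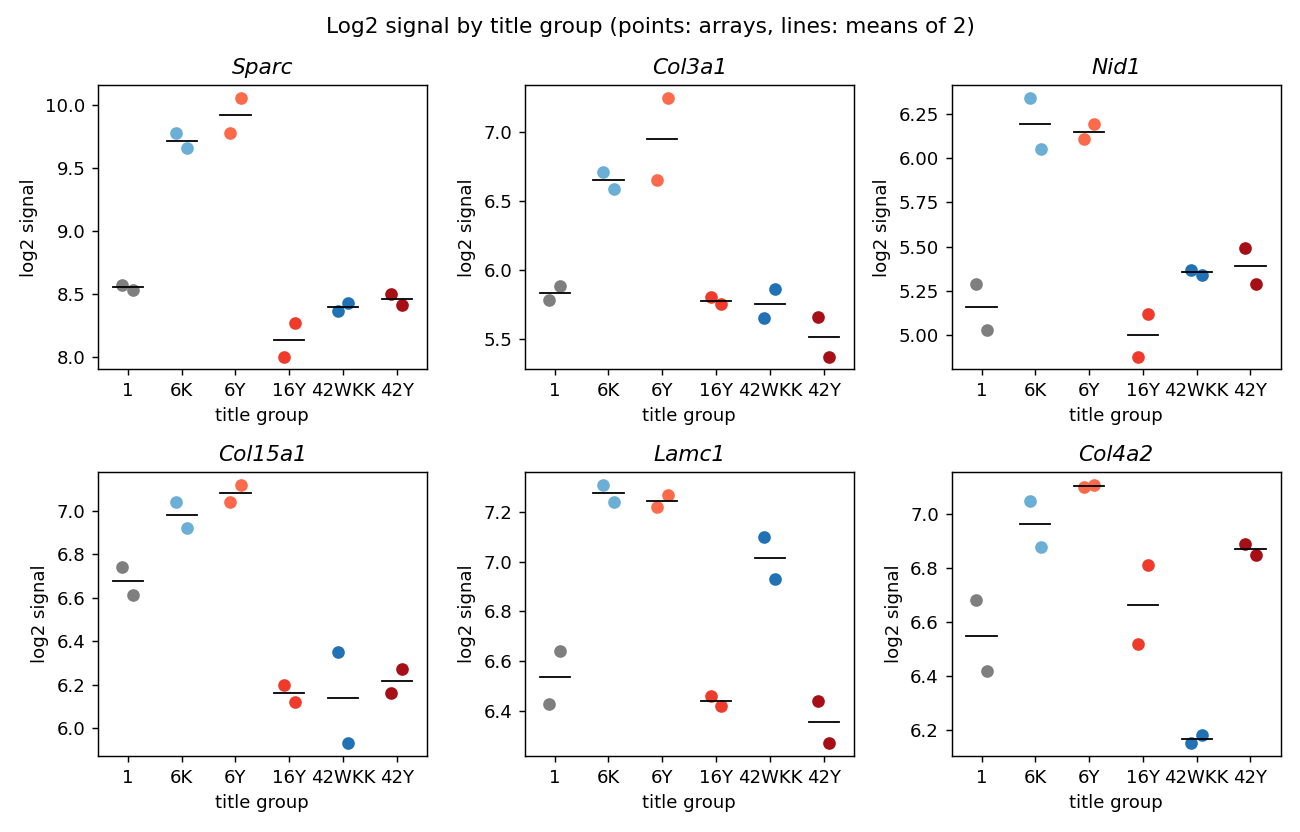
Log2 signal (vertical axis) of 6 genes by title group (horizontal axis), with a point for each array and a line for the mean of the 2 arrays. Sparc, Col3a1, Nid1 and Col15a1 are highest in 6K and 6Y, whereas Lamc1 is also high in 42WKK, and Col4a2 is lowest in 42WKK.

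The basement membrane chains held the largest share of calls, with 6 of 8 lower at title number 42. Nid1 (cluster 10403584), which links laminin to collagen IV, had log2 signals of 5.29 and 5.03 in group 1, 6.34 and 6.05 in 6K, 6.11 and 6.19 in 6Y, 4.88 and 5.12 in 16Y, 5.37 and 5.34 in 42WKK, and 5.49 and 5.29 in 42Y. Title number 6 was apart from the rest, and the Y and K arrays lay together at both title numbers. Its log2 difference was -0.80 (standard error 0.10, limma adjusted p = 0.0084). Col15a1 (cluster 10504775), a collagen at the border between basement membrane and stroma, had 6.74 and 6.61 in group 1, 7.04 and 6.92 in 6K, 7.04 and 7.12 in 6Y, 6.20 and 6.12 in 16Y, 6.35 and 5.93 in 42WKK, and 6.16 and 6.27 in 42Y. Group 1 lay between title number 6 and the 3 other groups here. Col15a1 had a log2 difference of -0.85 (standard error 0.10, limma adjusted p = 0.0057). Lama2, a laminin alpha chain, differed less, by -0.39 (standard error 0.07, limma adjusted p = 0.024). The remaining members of the role, Col18a1, the precursor of endostatin, and Lamb1, a laminin beta chain, did not pass. Col18a1 ranged from 9.13 to 9.57 and Lamb1 from 5.13 to 5.71 over the 12 arrays.

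The sequence before the start of Nid1 is shown beside that of Col1a2 because both genes differed by title number and both sequences hold the same boxes. It spans chr13:13437352-13437601 on the plus strand (RefSeq, GRCm38.p6), with the same boxes in capitals.
Nid1: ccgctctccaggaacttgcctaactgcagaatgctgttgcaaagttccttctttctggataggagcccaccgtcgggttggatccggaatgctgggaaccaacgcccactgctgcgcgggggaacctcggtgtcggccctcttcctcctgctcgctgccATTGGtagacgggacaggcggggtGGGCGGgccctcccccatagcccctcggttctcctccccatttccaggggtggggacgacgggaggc

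A RefSeq promoter entry was found for 29 of the 45 members. In the 250 bases before the start, CCAAT occurred on either strand in 13 of these 29 (44.8%), against 35.5% of 15614 promoters. GGGCGG occurred in 16 (55.2%, against 46% of all), TATAAA in 5 (17.2%, against 11.2%), and CATTCC, the core of a TEAD site, in 6 (20.7%, against 11.3%). None of the 4 strings contains another. The letters are a description of the windows, and nothing was read from them about a factor.

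Col4a1 and Col4a2 encode the chains of the common collagen IV trimer and are transcribed away from each other from a shared stretch of chromosome 8. Their annotated starts lie at 11312826 for Col4a1, on the minus strand, and at 11312805 for Col4a2, on the plus strand, and the 22 bases from one to the other are in capitals in chr8:11312801-11312830 (plus strand, RefSeq, GRCm38.p6).
Col4a2: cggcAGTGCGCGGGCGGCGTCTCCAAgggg
Col4a2 (cluster 10570068) had log2 signals of 6.68 and 6.42 in group 1, 7.05 and 6.88 in 6K, 7.10 and 7.11 in 6Y, 6.52 and 6.81 in 16Y, 6.15 and 6.18 in 42WKK, and 6.89 and 6.85 in 42Y. The lowest arrays were those of 42WKK, and 42Y overlapped with 6K. Col4a1 (cluster 10576973) had 6.95 and 6.86 in group 1, 7.42 and 7.34 in 6K, 7.36 and 7.32 in 6Y, 6.72 and 6.83 in 16Y, 6.54 and 6.51 in 42WKK, and 7.06 and 6.91 in 42Y. Both chains were thus lowest in 42WKK and highest at title number 6. Over Y and K together, the log2 difference was -0.61 for Col4a1 (limma adjusted p = 0.0052) and -0.52 for Col4a2 (limma adjusted p = 0.026). In 42WKK against 6K it was -0.85 for Col4a1 (limma adjusted p = 0.011) and -0.80 for Col4a2 (limma adjusted p = 0.037).

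The comparison of the study on these arrays is KK-Ay against KK mice at 42 weeks, and it called 2 of the 45 members (4.44%), against 1.92% of all genes. Col4a2 was higher in 42Y than in 42WKK, 1.63-fold (log2 difference 0.70, standard error 0.13, 95% interval 0.40 to 1.00, limma adjusted p = 0.041). Lamc1 (cluster 10358816), the gamma chain shared by most laminins, was lower in 42Y, 1.57-fold (log2 difference -0.65, standard error 0.11, 95% interval -0.91 to -0.39, limma adjusted p = 0.033). Col4a1 had 0.46 (95% interval 0.23 to 0.68), with an adjusted p of 0.06 from limma. Of the 45 members, 21 had higher and 24 lower means, and the median log2 difference was -0.01, against 0.00 over all genes.

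Lamc1 had log2 signals of 6.43 and 6.64 in group 1, 7.31 and 7.24 in 6K, 7.22 and 7.27 in 6Y, 6.46 and 6.42 in 16Y, 7.10 and 6.93 in 42WKK, and 6.44 and 6.27 in 42Y. The 42WKK arrays were the nearest to title number 6, and group 1, 16Y and 42Y lay below them. Neither call at 42 weeks was stable. That of Col4a2 was lost without either array of 6K, 6Y, 42WKK or 42Y (8 of the 12 arrays), and that of Lamc1 without any 1 array other than those of group 1 (10 of 12), with values from 0.67 to 0.72 for Col4a2 and from -0.74 to -0.57 for Lamc1 over all alternatives.

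The other members did not pass at 42 weeks, and the largest values, those of Lrat and Thbs1, came from arrays that spread widely within a group. Lrat had log2 signals of 8.11 and 7.26 in 42WKK and 6.58 and 6.47 in 42Y, with a log2 difference of -1.16 (95% interval -2.01 to -0.32, limma adjusted p = 0.16). Reln, a glycoprotein that marks stellate cells, had -0.50 (95% interval -0.89 to -0.10), and Pdgfra, a PDGF receptor, -0.20 (-0.53 to 0.13). Thbs1, an activator of latent TGF-beta, had 6.86 and 5.38 in 42Y and 5.10 and 5.47 in 42WKK, so 1 array set its difference of 0.84 (95% interval -0.08 to 1.75, limma adjusted p = 0.33). The small proteoglycans Bgn and Lum had -0.53 (95% interval -0.94 to -0.11) and -0.49 (-0.99 to 0.01). The TGF-beta ligands pointed in both directions, with -0.32 for Tgfb2 (95% interval -0.60 to -0.04), and 0.30 for Tgfb1 and 0.13 for Tgfb3, whose intervals held 0.

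In the remaining roles the intervals at 42 weeks held 0, except for Col14a1 among those named here. Its log2 difference was -0.42 (95% interval -0.80 to -0.04), with 0.16 for Col6a1 and 0.10 for Col6a2, both chains of collagen VI. The values of Col3a1 (-0.24, 95% interval -0.67 to 0.20), Col5a1 (-0.09) and Col5a2 (0.24) are those of the fibrillar chains with the largest differences by strain. The crosslinking enzymes were Loxl1 (-0.17) and Lox (0.08), which crosslink collagen and elastin. The values were 0.30 for Timp1, an inhibitor of matrix proteases, and 0.14 and -0.19 for the collagenases Mmp13 and Mmp14.

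**Figure D3:**
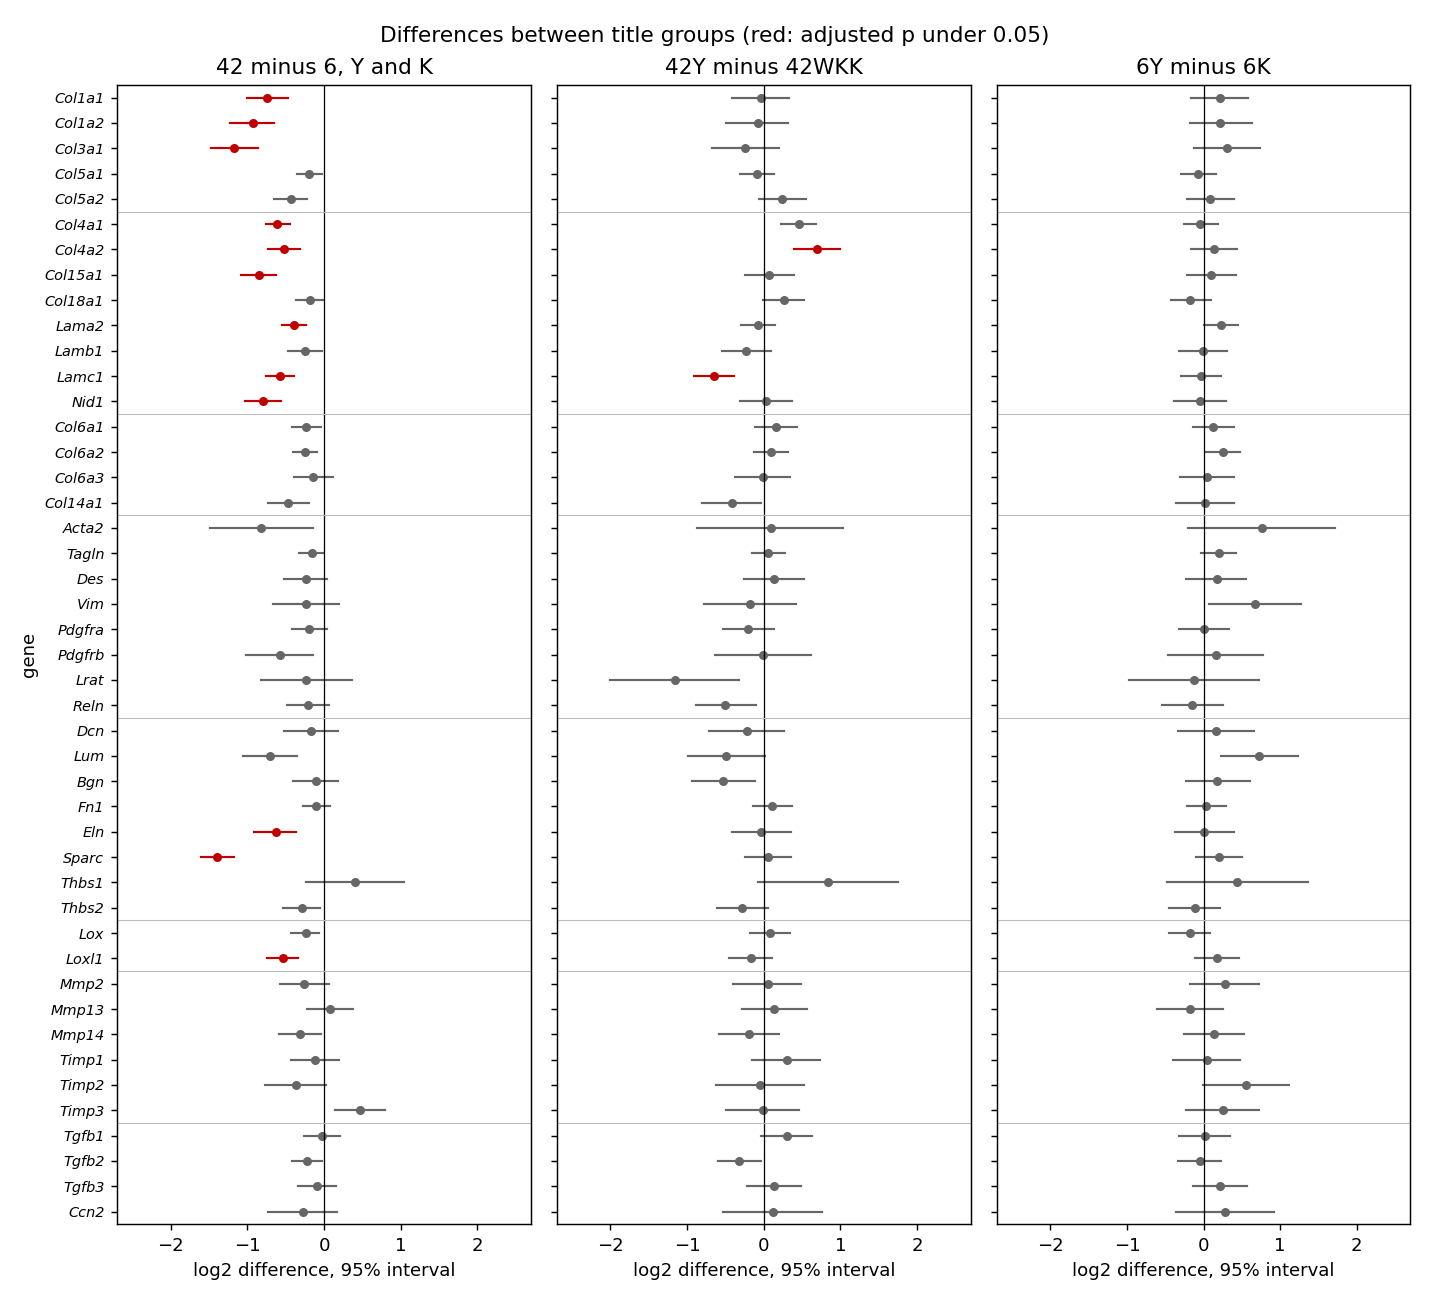
Log2 difference (horizontal axis) with its 95% interval for each of the 45 genes (rows, in the order of the heat map) in 3 comparisons. Red marks an adjusted p under 0.05 from limma, with 12 genes for title number 42 minus 6 over Y and K, 2 for 42Y minus 42WKK and 0 for 6Y minus 6K.

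No member passed in 6Y against 6K with limma, where 0.00502% of all genes were called. An unadjusted p under 0.05 was found for 4 of the 45 members and for 917 of all 19938 genes. The means of 33 of the 45 were higher in 6Y, with a median log2 difference of 0.14. Array 6Y-2 was above 6Y-1 in 32 members, and without it the median was 0.01. Acta2, the smooth muscle actin of myofibroblasts, had 7.00 and 8.46 in 6Y and 6.86 and 7.08 in 6K, and 6Y-2 was the highest of the 12 arrays by a wide margin. Its log2 difference was 0.76 (95% interval -0.20 to 1.71, limma adjusted p = 0.92). Lum had 0.73 (95% interval 0.23 to 1.23), Vim, an intermediate filament of mesenchymal cells, 0.67 (0.07 to 1.27), and Timp2, a protease inhibitor, 0.56 (-0.01 to 1.12).

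The Y against K difference at title number 42 minus that at 6 passed in no member with limma, against 0.0953% of all genes. Here 6 of the 45 members and 2663 of all 19938 genes had an unadjusted p under 0.05, which are similar shares. The value was -0.62 for Lamc1 (95% interval -0.99 to -0.25, limma adjusted p = 0.17) and 0.56 for Col4a2 (0.14 to 0.98, limma adjusted p = 0.26). All Y against all other arrays gave no member either with limma, where 0.261% of all genes were called. An unadjusted p under 0.05 was reached by 3 members and by 2522 of all 19938 genes. There the log2 differences of the 45 members ran from -0.49 for Lrat to 0.34 for Thbs1, with a median of 0.01, and no member had all 6 Y arrays on one side of the 6 others.

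Within the Y arrays the fall from title number 6 was present at both 16 and 42. In 16Y against 6Y, 8 members were lower and none higher (17.8%, against 1.99% of all genes in either direction and 1.48% lower), with a median log2 difference of -0.42. Besides Sparc they were Col3a1 (-1.17, adjusted p = 0.032), Nid1 (-1.14, adjusted p = 0.022), Col15a1 (-0.92, adjusted p = 0.031), Lamc1 (-0.81, adjusted p = 0.027), Col4a1 (-0.57, adjusted p = 0.035), Lum (-1.14, adjusted p = 0.046) and Tagln, an actin-binding protein of smooth muscle (-0.51, adjusted p = 0.046), all from limma. In 42Y against 6Y, 10 members were lower and none higher (22.2%, against 2.3% and 1.38%), with a median of -0.36. They were Col3a1 (-1.44), Lum (-1.31), Col1a2 (-1.08), Lamc1 (-0.88), Col15a1 (-0.87), Col1a1 (-0.86), Nid1 (-0.76), Loxl1 (-0.72) and Lama2 (-0.54) beside Sparc, with limma adjusted p from 0.0031 to 0.044.

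These counts rest on few arrays. In 16Y against 6Y the count dropped to between 1 and 4 without any 1 array of groups 1, 6K, 6Y, 16Y or 42WKK, and it was 11 without either 42Y array. In 42Y against 6Y it was between 2 and 7 with each array left out, and lowest without 6Y-2. Sparc passed in both without each array in turn, and Col3a1 in 42Y against 6Y.

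In the K arrays, 42WKK against 6K called 5 members lower and none higher (11.1%, against 1.03% of all genes in either direction and 0.391% lower), with a median of -0.20. They were Sparc, both collagen IV chains, Col15a1 (-0.84, limma adjusted p = 0.04) and Nid1 (-0.83, limma adjusted p = 0.044), of which 4 are basement membrane genes. The fibrillar chains had similar signs without passing, with -0.90 for Col3a1 (limma adjusted p = 0.073), -0.78 for Col1a2 (0.087) and -0.61 for Col1a1 (0.12). Lamc1 had -0.26 here. The count of 5 dropped to between 0 and 3 with each array left out, and to 0 without 6K-1 or 42WKK-A. Over any of the 6 groups, the moderated F test of limma called 12 members (26.7%), against 5.91% of all genes. These were the 12 of the title number comparison with Lum in place of Eln. Lum, a small proteoglycan of collagen fibrils, ranged from 3.85 to 5.05 at title number 6 and from 3.18 to 4.02 elsewhere, so the groups overlapped. Its mean of 3.83 lay below all array medians.

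None of the 8 listed stellate cell and myofibroblast markers passed in the comparison by title number. The log2 difference was -0.82 for Acta2 (limma adjusted p = 0.2), -0.58 for Pdgfrb, a PDGF receptor (limma adjusted p = 0.16), -0.23 for Lrat, -0.23 for Vim and -0.16 for Tagln. All 8 means of this role were lower over Y and K together, but the fall was mostly that of the Y arrays. The median difference was -0.52 in 42Y against 6Y and -0.09 in 42WKK against 6K, where Lrat (0.29) and Vim (0.19) were higher. For Acta2, 6Y-2 had 8.46 and 6Y-1 had 7.00. The array medians of the role were 6.59 to 7.11 at title number 6 and 6.03 to 6.42 elsewhere, so they did not overlap. Eln, the elastin precursor, lay between 5.73 and 5.88 at title number 6 and at 5.45 or below elsewhere, with -0.63 (limma adjusted p = 0.032). Loxl1, which crosslinks elastin, lay at 4.99 or above and at 4.89 or below, with -0.54 (limma adjusted p = 0.018). Fn1, a glycoprotein of plasma and matrix, stayed within 12.07 to 12.44 over the 12 arrays, with -0.10. Timp3, a matrix-bound protease inhibitor, had the largest value in the other direction, 0.47 (95% interval 0.14 to 0.80, limma adjusted p = 0.14).

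Markers of other cell types are set beside this pattern. The median log2 signal of 14 liver endothelial markers was 7.92 to 8.42 in the 4 arrays of title number 6 and 6.98 to 7.88 in the 8 others, and that of 13 macrophage markers 7.15 to 7.87 and 6.10 to 7.32. Lyve1, which marks sinusoidal endothelium, ranged from 6.49 to 7.32 at title number 6 and from 5.32 to 6.62 elsewhere. No endothelial or macrophage marker passed in title number 42 against 6 with limma, where 13 of the 14 and 10 of the 13 had lower means. An unadjusted p under 0.05 was found for 8 and 5 of them, and for 3982 of all 19938 genes. In 16Y against 6Y, 5 of the 14 endothelial markers passed, all lower, with a median of -0.95. This stands beside 8 of the 45 members and 1.99% of all genes. Over any of the 6 groups, the moderated F test called 6 of the 14 endothelial and 0 of the 13 macrophage markers. It called 12 of the 45 members and 5.91% of all genes. The hepatocyte marker medians were 13.06 to 13.22 at title number 6 and 13.05 to 13.25 elsewhere. The array medians of the B cell and plasma cell list, with 5 genes measured, were 3.05 to 3.48 at title number 6 and 3.77 to 4.83 elsewhere. The list did not move as a whole, since 2 genes had higher and 3 lower means at title number 42, with a median log2 difference of -0.05. In many arrays its median was the Jchain signal itself. Of its genes, Jchain, the joining chain of secreted antibodies, passed, 3.72-fold higher at title number 42 (log2 difference 1.89, limma adjusted p = 0.0033), with 2.78 to 3.48 at title number 6 and 3.77 to 5.75 elsewhere. The signals of Cd79a, Cd79b, Ms4a1 and Mzb1 overlapped between these arrays. The part of endothelial, macrophage and plasma cell RNA in the matrix result was not tested.

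Of 15 quiescent stellate cell markers outside the list, 2 passed by title number, both lower. Over all genes, 3.61% were called in either direction and 2.07% lower. The 2 were Pth1r, the parathyroid hormone receptor (-0.90, limma adjusted p = 0.0019), and Colec11, a collectin (-0.45, limma adjusted p = 0.022). The array medians of the 15 markers overlapped, with 6.07 to 6.16 at title number 6 and 5.67 to 6.29 elsewhere. Smooth muscle and pericyte markers had medians of 5.40 to 5.56 and 4.93 to 5.35, and 0 of 11 passed with limma. An unadjusted p under 0.05 was found for 5 of the 11 and for 3982 of all 19938 genes.

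**Figure D4:**
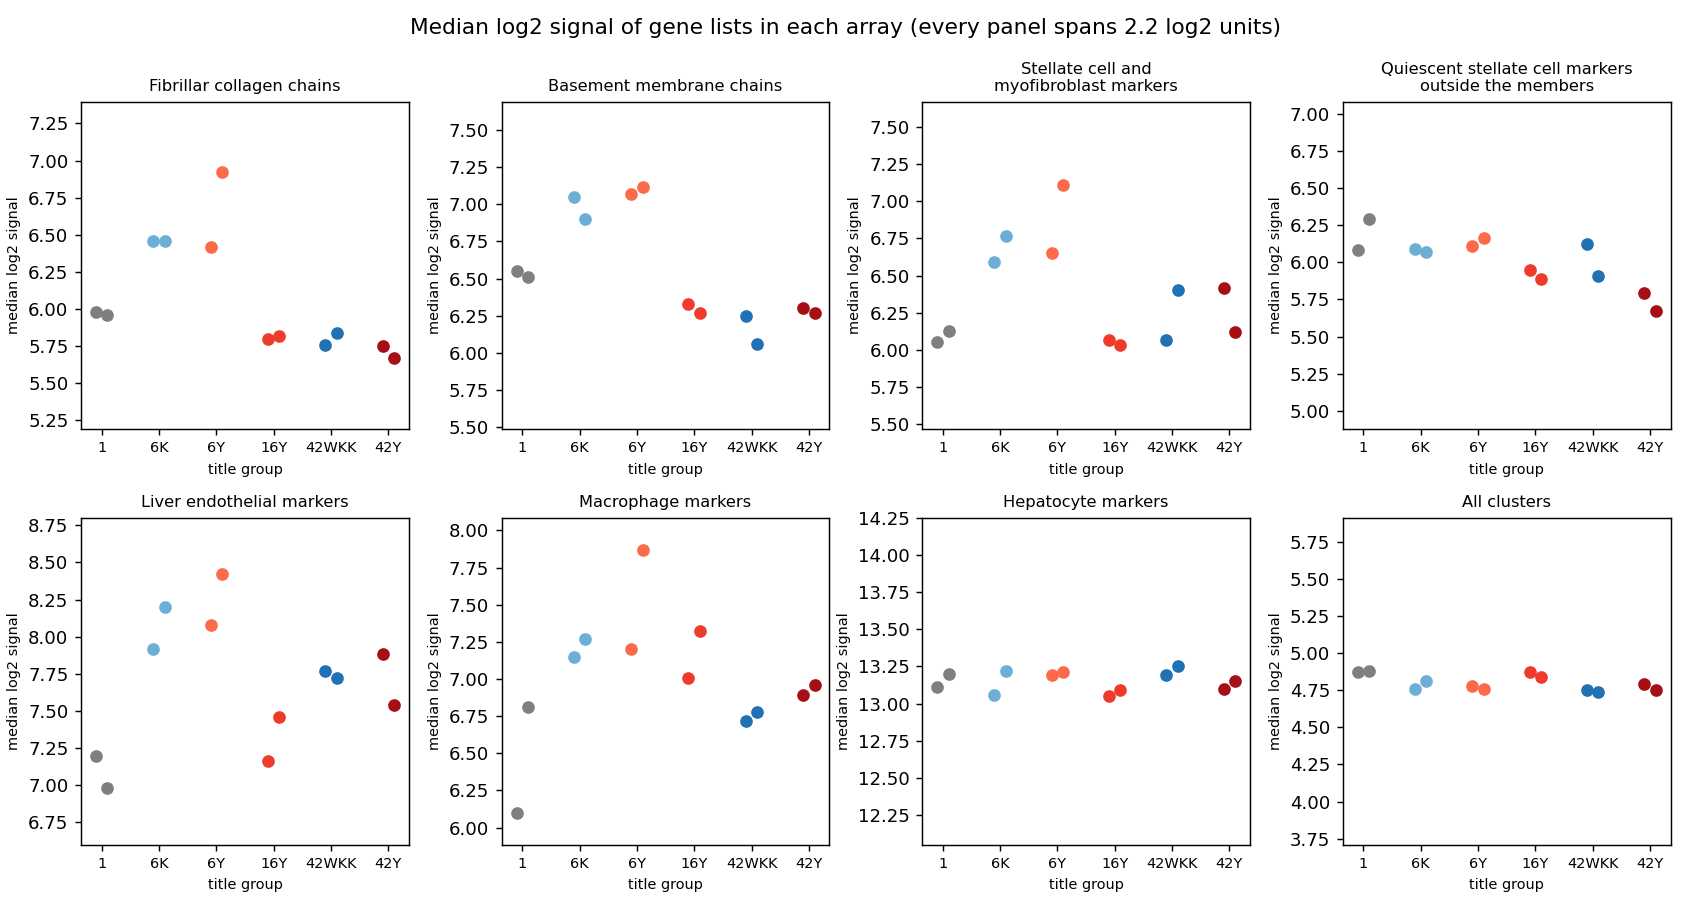
Median log2 signal (vertical axis) of gene lists in each array, by title group (horizontal axis), with every panel spanning 2.2 log2 units. Fibrillar, basement membrane, endothelial, and stellate cell and myofibroblast medians are highest in 6K and 6Y. The hepatocyte medians (13.05 to 13.25) and the medians of all clusters (4.74 to 4.88) stay level.

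Of 175 other genes of the pathway, 2 were higher and 3 lower in 42Y than in 42WKK, against 1.92% of all genes called. Postn, a matricellular protein of activated stroma, had log2 signals of 7.56 and 7.14 in 42WKK and 5.90 and 5.70 in 42Y, and it lay between 5.56 and 6.21 in the 8 remaining arrays. It was 2.93-fold lower in 42Y (log2 difference -1.55, standard error 0.15, limma adjusted p = 0.0041). Efemp1, a fibulin and a marker of portal fibroblasts, had 6.81 and 6.72 in 42WKK and 5.82 and 5.41 in 42Y (-1.15, limma adjusted p = 0.02). Prelp, a leucine-rich proteoglycan, was lower in 42Y, with -0.61 (limma adjusted p = 0.047). Postn and Efemp1 were thus high in 42WKK alone among the 6 groups, unlike the fibrillar chains.

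The 2 higher genes belong to the TGF-beta and PDGF list. Inhbb, the activin beta-B subunit, had 6.34 in both 42Y arrays and at most 4.99 in the other 10, with a log2 difference of 1.66 (limma adjusted p = 0.0049). Klf6, a transcription factor induced in activated stellate cells and in many other cells, had 8.13 and 7.19 in 42Y and at most 6.17 in the other 10 arrays (1.63, limma adjusted p = 0.029). None of the 31 other collagen chains, 20 collagen processing enzymes, 12 other laminin and basement membrane genes, 25 other proteases and inhibitors or 21 matrix receptors passed at 42 weeks with limma. Of these lists, 0, 1, 3, 4 and 7 genes had an unadjusted p under 0.05, against 3563 of all 19938 genes. Among cell type markers, Pth1r was lower in 42Y (-0.65, limma adjusted p = 0.033), and Retnlg, a marker of neutrophils, was higher (1.90, limma adjusted p = 0.0044), while 1 of 11 portal fibroblast markers, Efemp1, passed.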

How the data were processed

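Deposited values were log2 signals of transcript clusters, which the authors obtained in Affymetrix Expression Console by RMA-sketch. A mouse exon array is named in the methods, but the cluster numbers belong to the mouse gene array, with a genome build not given in the sources used here. Of 35556 clusters, 21789 carried 1 symbol, 1621 several and 12146 none. Symbols were updated through RefSeq GRCm38.p6, which also gave starts and sequences. Each gene was represented by the cluster with the highest mean of the 12 arrays. Members and lists were chosen with earlier results of these data known. Named are all members called in a comparison, the 3 largest differences per role at 42 weeks and up to 4 called genes per other list.

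The 6 group means came from lmFit and eBayes of limma 3.58.1 (R 4.3.3), without a trend and with 8.59 degrees of freedom, with Benjamini-Hochberg adjustment over all clusters and a threshold of 0.05. The fit was tested on simulated data. Background shares are over 19938 genes. Motifs and figures used Python 3.11.15. Precision is limited by the number of arrays.

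Replicate numbers 1 and 2 in 6K, 6Y, 16Y and 42Y did not pair the arrays. Alternatives were another normalization, a filter at a mean of 6, a variance trend, fewer arrays, the ANOVA named in a supplement, a replicate block and each array left out.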

Additional observations from a re-analysis of the deposited data

How the results depend on the processing

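Of 58 member differences recomputed under the alternatives, 2 changed direction, neither of them called. In 42Y against 42WKK, Lox ran from -0.0416 without 42WKK-B to 0.198 without 42WKK-A, and Mmp13 from -0.105 without 42WKK-A to 0.392 without 42WKK-B, and it was also below 0 without 42Y-2. Of the members called, 6 of 12 by title number passed with each array left out and under every other limma alternative fitted for it. None of those called in the other comparisons passed in all of theirs. The title number comparison was not fitted without the 6K arrays, in 4 arrays alone or with the replicate block. In the 4 arrays compared alone, no member was called in any comparison of 2 groups, so these results are not on a like footing. Counts of members called moved as follows. In 42Y against 42WKK the count was 1 with quantile normalization or median centring, 0 without the 6K arrays and 0 in the 4 arrays compared alone. In 16Y against 6Y it was 14 with median centring, 15 with clusters of 1 symbol alone, 3 without the 6K arrays and 0 in the 4 arrays compared alone. In 42Y against 6Y it was 6 without the 6K arrays and 0 in the 4 arrays alone, and in 42WKK against 6K it was 3 with median centring, 8 with the filter at a mean of 6 and 0 in the 4 arrays alone. The filter gave 1 member in the Y against K difference at 42 minus that at 6, and 2 in Y against the other arrays. By title number it called 10 of the 24 members kept, 9 lower and 1 higher, so not every call was lower there. The filter also moved the median to -0.63 in 16Y against 6Y and -0.57 in 42Y against 6Y. The ANOVA at an unadjusted p called 4 members in 42Y against 42WKK, 2 in 6Y against 6K, 14 in 16Y against 6Y and 17 in 42WKK against 6K, and after adjustment 0 in each of these and in 42Y against 6Y. With each array left out the counts ran from 0 to 2 in 42Y against 42WKK, 1 to 11 in 16Y against 6Y, 2 to 7 in 42Y against 6Y, 0 to 3 in 42WKK against 6K, 6 to 14 by title number and 3 to 12 over any of the groups.

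With the replicate block, fitted to the 8 arrays of 6K, 6Y, 16Y and 42Y, no member was called in 16Y against 6Y or 42Y against 6Y (0 and 0), against 1 and 3 in the same arrays without it. Deviations of arrays with the same number correlated between -0.036 and 0.055, so the numbers do not pair the arrays. The causes of these shifts were not tested.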

Other observations

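Outside the members, Loxl4, a lysyl oxidase that crosslinks collagen, differed more by title number than any member. It was named after its values were seen. Its log2 signals were 8.16 and 8.03 in 6K and 7.87 and 8.59 in 6Y, against 4.36 to 5.17 in the 8 other arrays. Over Y and K it was 9.14-fold lower at title number 42 than at 6 (log2 difference -3.19, standard error 0.15, limma adjusted p = 4.4e-05). Nid2, the second nidogen, was lower as well (-0.66, limma adjusted p = 0.024), as were the integrin subunits Itga8 (-0.82, limma adjusted p = 0.018), a marker of stellate cells, and Itga5 (-0.76, limma adjusted p = 0.015), part of the fibronectin receptor. P4ha1, a prolyl hydroxylase of collagen, had 6.05 to 6.49 at title number 6, 6.47 and 6.14 in 16Y and 6.72 and 6.86 in group 1. It had 7.14 to 7.92 in 42WKK and 42Y, and so was higher at title number 42 than at 6 (1.32, limma adjusted p = 0.005). Of the 175 other pathway genes, 7 were lower and 5 higher in this comparison (6.86%, against 3.61% of all genes called in either direction and 2.07% called lower).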
